A study of Homo sapiens with 6 samples.

Results

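The genes of the TNF ligand and receptor superfamilies were followed in MOLM-13, a human acute myeloid leukaemia cell line, with and without a compound named 8p that the submitters describe as acting on RET and CDK kinases. The set was taken by symbol: protein-coding genes whose name begins with TNFSF or TNFRSF and a number, together with TNF, LTA, LTB and LTBR. This gave 37 genes, 15 ligands and 22 receptors, of 58735 genes in the table, 19951 of them protein-coding. Treated cells received 8p at 3.5 nM, below a stated IC50 of 7 nM, and control cells were left untreated (3 cultures each, 48 hours in both groups, genotype labelled WT). The submitters call the cultures independent biological replicates of the 1 line, and no label says whether controls received the solvent of 8p. An effect of solvent and one of 8p can therefore not be told apart.

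Ligands of this superfamily are mostly trimeric membrane proteins that can be cut from the cell surface, and their receptors carry cysteine-rich repeats that bind them. Receptors with an intracellular death domain can recruit adaptors such as TRADD and FADD and lead to caspase activation, and most other receptors bind TRAF proteins that switch on NF-kappaB and kinase pathways. Decoy receptors bind ligand but lack a working signalling tail. Monocytes and macrophages are known sources of TNF and of the B cell survival factors TNFSF13 (APRIL) and TNFSF13B (BAFF), and they carry both receptors for TNF.

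Total counts ran from 14972069 to 16210861 in the 8p libraries and from 18834611 to 23485628 in the control libraries. Mitochondrially encoded genes took 6.42% of counts in 8p replicate 2, 9.98% and 10.004% in the other 8p libraries and 1.64% to 1.91% in controls. That library also stood apart over all genes, with a chi-square per degree of freedom of 21.7 and 21.5 against the other 8p libraries, which had 2.98 between them, and 3.91 to 10.7 between controls. Without it 11 superfamily genes rose and 3 fell, the call lost being that of TNFRSF13C, against 12 and 3 with all libraries. All 11 markers of myeloid identity had enough counts to be tested (6 rose and 3 fell, 81.8% called, against 74.7% of all genes tested), and their summed level was 5161 to 5744 CPM (read counts adjusted for library size) with 8p and 2116 to 2232 CPM in controls, most of it LYZ with 8p. LYZ, SPI1, FLT3, CEBPA, CSF1R and CD14 rose, CD33, MPO and HOXA9 fell, and MEIS1 and ITGAM did not pass. Markers of other lineages were mostly low. The summed level of 12 T and NK cell markers was 205 to 254 CPM with 8p and 158 to 171 CPM in controls, most of it CD4, which monocytes also carry, with CD8A and KLRD1 at 0 in all libraries. Of the 7 tested, NKG7 (34.0 CPM with 8p, 19.8 CPM in controls), CD4, CD5, GNLY and NCAM1 rose, and TRAC (4.87 CPM with 8p, 12.9 CPM in controls) and CD3D (0.481 CPM with 8p, 3.01 CPM in controls) fell. For 7 B cell markers the sum was 42.4 to 55.2 CPM with 8p and 29.8 to 35.0 CPM in controls, most of it IGKC, with PAX5 at 0. For 8 epithelial and fibroblast markers it was 31.6 to 41.8 CPM with 8p and 9.74 to 10.3 CPM in controls, most of it COL1A1 with 8p, with EPCAM, KRT19, COL1A2, COL3A1 and DCN at 0. COL1A1 and KRT8 rose, and KRT18, most of the sum in controls, fell (3.06 CPM with 8p, 8.48 CPM in controls). For 4 endothelial markers it was 511 to 579 CPM with 8p and 108 to 113 CPM in controls, almost all of it PECAM1, which monocytes express, with CDH5 and KDR at 0. The part of these shifts in the results for the TNF superfamilies was not tested.

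Of the 37 genes, 18 were expressed, taken here as a mean of at least 1 CPM in a group: 7 ligands and 11 receptors. The same 18 passed the filter on low counts and were tested. With 8p 16 genes reached 1 CPM, and in controls 17 did. TNFRSF13C reached it with 8p only (0.945 CPM in controls). TNFRSF14 (0.199 CPM with 8p) and TNFRSF21 (0.896 CPM with 8p) reached it in controls only. Another 11 genes had between 1 and 36 counts over the 6 libraries, and 8 had none: TNFSF8, TNFSF11, TNFSF18, TNFSF12-TNFSF13, TNFRSF6B, TNFRSF11B, TNFRSF13B and TNFRSF18. With 3 counts summed per group as the floor, a 0 allows up to 0.0645 CPM with 8p and up to 0.0472 CPM in controls. This limit holds for genes with exon bases of their own. It cannot be given for TNFSF12-TNFSF13 and TNFRSF6B, whose exon bases all lie in other genes.

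Of the 18 tested genes 12 rose with 8p, 3 fell and 3 did not pass the threshold, an adjusted p under 0.05 in edgeR's quasi-likelihood test. Across all 13822 genes tested 74.7% passed, 37.9% higher and 36.9% lower with 8p, and among protein-coding genes 77.2% passed, 35.6% higher and 41.6% lower. With upper quartile scaling 6240 genes were higher and 4258 lower, against 5232 and 5098 as scaled here. In the superfamilies the shares passing, higher and lower were 83.3%, 66.7% and 16.7%. Their median log2 fold change was 0.61, against 0.03 for all genes tested and −0.07 for protein-coding genes. Groups did not overlap for 16 of the 18, against a background of 77%. For 9 of them the change was at least 2-fold, 6 higher and 3 lower, against 38.4% of all genes. TNFRSF14 passed the filter only through the controls, in which it was high, and TNFRSF21 through 2 of the 3 8p libraries and all controls, so these shares are given as a description. The summed level of all 37 genes was 1011 ± 6.57 CPM with 8p and 573 ± 24.5 CPM in controls (SD, n = 3). Receptor genes made up 801 CPM of it with 8p (SD 6.001) and 431 ± 24.2 CPM in controls, and ligand genes 210.0 ± 12.3 CPM with 8p and 142 ± 1.62 CPM in controls. RNA was measured from whole cultures, so fewer cells with a transcript and less of it per cell cannot be told apart.

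**Figure D1:**
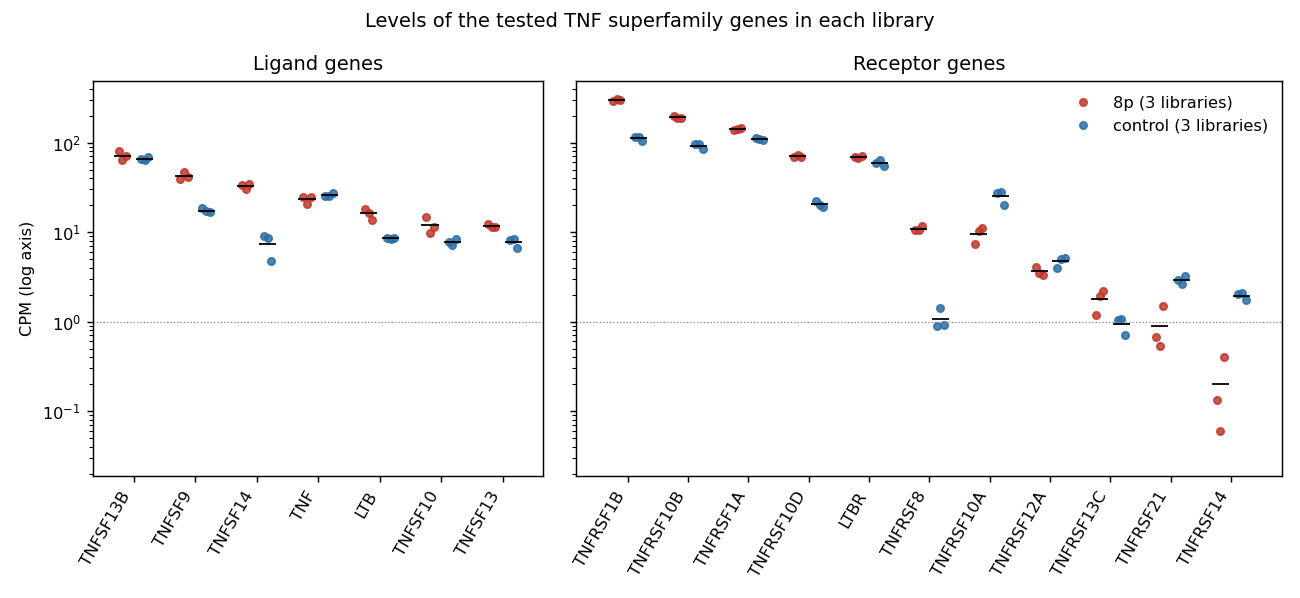
Level of each tested superfamily gene in CPM (log axis) in the 3 8p libraries (red, left of each pair) and the 3 control libraries (blue, right), with a black line at each mean and a dotted line at 1 CPM. The receptors TNFRSF1B, TNFRSF10B and TNFRSF10D stand well above their controls with 8p, and TNFRSF14 stands below 0.5 CPM in every 8p library.

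Among the ligands 5 of 7 tested rose and none fell. The share called was 71.4%, all of it higher, against 74.7% of all genes tested, 37.9% higher and 36.9% lower. TNFSF14, also called LIGHT, a ligand of LTBR and of TNFRSF14, lies on GRCh38 chromosome 19 from 6661253 to 6670588 on the minus strand. It had 33.4, 30.0 and 34.1 CPM in 8p libraries, against 9.11, 8.50 and 4.73 CPM in control libraries. All 8p values were above all control values, and control replicate 3 was the lowest of the 6. The log2 fold change was 2.11 (SE 0.18, adjusted p = 2.50e-08, edgeR).

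TNFSF9, the 4-1BB ligand, which costimulates T cells, lies on the same chromosome from 6530999 to 6535928 on the plus strand. It had 39.4, 46.3 and 40.8 CPM with 8p, against 18.4, 17.0 and 16.6 CPM in controls. The groups did not overlap, and TNFSF9 rose by 1.28 on the log2 scale (SE 0.10, adjusted p = 9.58e-09, edgeR). CD70, the ligand of CD27 and a superfamily gene under another symbol, lies between TNFSF9 and TNFSF14 and had 157, 133 and 148 CPM with 8p, against 56.6, 58.5 and 70.3 CPM in controls. It rose too, by 1.24 on the log2 scale (SE 0.09, adjusted p = 5.65e-09, edgeR). All 3 ligand genes of this stretch of chromosome 19 were higher with 8p, as were 37.9% of all genes tested. Other genes of the stretch were not examined.

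LTB encodes lymphotoxin beta, which anchors lymphotoxin alpha in a membrane trimer that binds LTBR. It had 18.2, 16.5 and 13.8 CPM with 8p, against 8.56, 8.36 and 8.54 CPM in controls, a difference of 0.93 on the log2 scale (SE 0.14, adjusted p = 1.90e-05, edgeR). The 8p libraries spread more widely than the controls and stayed above all of them. TNF, the founding ligand, lies 2188 bases from LTB on chromosome 6 (31575567 to 31578336, plus strand). It had 24.6, 20.5 and 24.4 CPM with 8p, against 25.2, 25.5 and 27.1 CPM in controls. Its 8p values lay just under the control values, and the log2 fold change of −0.16 (SE 0.10) did not pass (adjusted p = 0.162, edgeR) and turned to 0.0241 with upper quartile scaling. LTA, which encodes lymphotoxin alpha and lies 1242 bases from TNF on the other side, was below the filter, with 13 counts over the 8p libraries and 23 over the controls. The 3 neighbours thus had different results, 1 higher, 1 not past the threshold and 1 with too few counts to test.

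TNFSF10, also called TRAIL, an inducer of apoptosis through death receptors, had 14.7, 9.89 and 11.5 CPM with 8p, against 7.80, 7.10 and 8.38 CPM in controls. It rose by 0.63 on the log2 scale (SE 0.16, adjusted p = 0.00268, edgeR), with no overlap between groups. TNFSF13 had 12.4, 11.4 and 11.3 CPM with 8p, against 8.14, 8.46 and 6.69 CPM in controls. It rose by 0.59 (SE 0.15, adjusted p = 0.00175, edgeR), again without overlap. TNFSF13B had 79.5, 63.5 and 71.0 CPM with 8p, against 65.6, 64.5 and 68.3 CPM in controls. Here the groups overlapped, since 8p replicate 2 was below all controls, and the log2 fold change of 0.11 (SE 0.09) did not pass (adjusted p = 0.267, edgeR). It was 0.00041 without 8p replicate 1 and −0.00838 with no filter on low counts, and it passed with upper quartile scaling (0.30, adjusted p = 0.00601) and with protein-coding genes only (0.19, adjusted p = 0.0481).

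Per kilobase of exon, TNFSF9 and TNFSF13B were the highest ligands with 8p, at 25.3 ± 2.20 and 23.3 ± 2.62 RPKM (CPM per kilobase, SD, n = 3), and TNF followed at 13.8 ± 1.38. In controls TNFSF13B was highest at 21.6 ± 0.649 RPKM, then TNF at 15.5 ± 0.611 and TNFSF9 at 10.4 ± 0.561. TNFSF9 held 28.6% ± 3.52 of the summed RPKM of all ligands with 8p and 17.2% ± 0.820 in controls, and TNF held 15.6% ± 1.23 with 8p and 25.6% ± 1.03 in controls. The level of TNF over that of LTB, both per kilobase, was 1.33 ± 0.256 with 8p and 2.80 ± 0.104 in controls, with no overlap. This and the 3 ratios of receptors given further on were picked after the values were seen, and each had an exact two-sided permutation p of 0.1, the smallest that 3 against 3 libraries allow, and the same after adjustment over the 4.

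Among the receptors 7 of 11 tested rose, 3 fell and 1 did not pass. The shares called, higher and lower were 90.9%, 63.6% and 27.3%, against 74.7%, 37.9% and 36.9% of all genes tested. Both receptors for TNF rose, by different amounts. TNFRSF1B, which encodes TNFR2, a receptor without a death domain that binds TRAF2, lies on chromosome 1 (12167003 to 12209228, plus strand). It had 294, 307 and 299 CPM with 8p, against 114, 116 and 104 CPM in controls, a difference of 1.43 on the log2 scale (SE 0.07, adjusted p = 3.31e-11, edgeR). TNFRSF1A, which encodes the death domain receptor TNFR1, had 139, 143 and 146 CPM with 8p, against 111, 111 and 108 CPM in controls. Its rise was 0.38 on the log2 scale (SE 0.06, adjusted p = 8.04e-05, edgeR), and neither gene's groups overlapped. Per kilobase, TNFRSF1B was at 2.23 ± 0.0566 times the level of TNFRSF1A with 8p and at 1.07 ± 0.0473 times in controls (SD, n = 3), with no overlap. TNFRSF1B was the highest gene of the superfamilies per kilobase in both groups, at 79.6 ± 1.64 RPKM with 8p and 29.5 ± 1.76 RPKM in controls, where TNFRSF1A was next at 27.5 ± 0.459 RPKM. It held 41.4% ± 0.503 of the summed RPKM of all receptors with 8p and 28.6% ± 0.170 in controls.

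**Figure D2:**
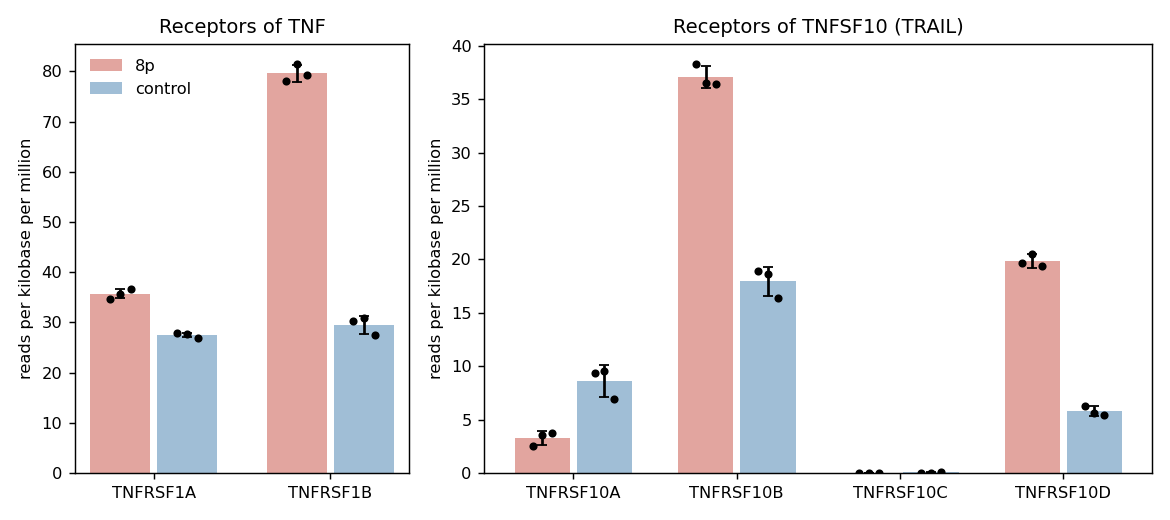
Mean level per kilobase (RPKM, bars from 0, error bars SD, n = 3, points single libraries) of the receptors of TNF and of TNFSF10 in 8p (red) and control (blue) libraries. TNFRSF10A stands lower with 8p, while TNFRSF1B, TNFRSF10B and TNFRSF10D stand higher.

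The 4 receptors of TNFSF10 lie side by side on the short arm of chromosome 8 and differed in direction. TNFRSF10B, the death domain receptor DR5, had 197, 188 and 188 CPM with 8p, against 97.3, 96.0 and 84.6 CPM in controls, a difference of 1.04 on the log2 scale (SE 0.07, adjusted p = 2.88e-09, edgeR). TNFRSF10A, the death domain receptor DR4, had 7.32, 10.4 and 11.1 CPM with 8p, against 27.6, 28.2 and 20.3 CPM in controls. It fell by 1.40 on the log2 scale (SE 0.16, adjusted p = 1.31e-06, edgeR), and the groups of both genes were apart. TNFRSF10D, whose receptor has a truncated death domain and does not signal death, had 69.4, 72.7 and 68.4 CPM with 8p, against 22.2, 20.0 and 19.1 CPM in controls. Its log2 fold change was 1.78 (SE 0.09, adjusted p = 4.90e-11, edgeR), with no overlap. TNFRSF10C, a decoy held in the membrane by a lipid anchor, had no count with 8p and 5 counts in controls.

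Death receptors of TNFSF10 thus moved apart, with DR5 higher and DR4 lower with 8p. The level of TNFRSF10B per kilobase was 15.4, 10.4 and 9.67 times that of TNFRSF10A in 8p libraries, against 2.02, 1.95 and 2.39 times in control libraries. TNFRSF10D, set against TNFRSF10A and TNFRSF10B together per kilobase, was at 0.492 ± 0.0184 with 8p and at 0.218 ± 0.0160 in controls (SD, n = 3). Neither ratio overlapped between groups. Exons of TNFRSF10B share 67 bases with RHOBTB2 on the other strand, a gene with 9748 counts in 8p libraries and 3164 in controls that rose by 2.07 on the log2 scale. The shared bases are 1.30% of the exon bases of TNFRSF10B, the one overlap its exons have. TNFRSF10A shares 16.6% of its exon bases with 2 genes on the other strand. Of these, AC100861.1 had 163 counts with 8p and 396 in controls and fell by 0.81, and TNFRSF10A-AS1 had 47 with 8p and 114 in controls and did not pass. Whether counting used the strand is not stated in the labels, so reads in shared bases cannot be told apart.

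TNFRSF8, which encodes CD30, a receptor of activated lymphocytes, had the largest rise of the tested genes. It lies 22795 bases from TNFRSF1B on chromosome 1 (12063377 to 12144207, plus strand). It had 10.6, 10.5 and 11.7 CPM with 8p, against 0.885, 1.40 and 0.925 CPM in controls, a difference of 3.34 on the log2 scale (SE 0.22, adjusted p = 1.28e-09, edgeR). The 8p libraries lay close together and far above the controls. Its ligand gene TNFSF8 had no count in any library.

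TNFRSF14, also called HVEM, a receptor of TNFSF14 that also binds the inhibitory receptor BTLA, had the largest fall. It lies on chromosome 1 (2555639 to 2565382, plus strand) and had 0.133, 0.0599 and 0.405 CPM with 8p, against 2.02, 2.10 and 1.74 CPM in controls. These are 9 counts over the 8p libraries and 125 over the controls, and 8p replicate 3 was the highest of the 8p libraries. The log2 fold change was −3.29 (SE 0.51, adjusted p = 2.83e-05, edgeR), and −4.30 without 8p replicate 3. TNFRSF14 passed the filter on low counts only through the controls, in which it was high, so its test result is given as a description. TNFRSF14 shares 13.4% of its exon bases with TNFRSF14-AS1 on the other strand, which had 5 counts with 8p and 12 in controls.

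TNFRSF21, the death domain receptor DR6, had 0.666, 0.539 and 1.48 CPM with 8p, against 2.95, 2.66 and 3.21 CPM in controls. It fell by 1.72 on the log2 scale (SE 0.36, adjusted p = 0.000489, edgeR), with 8p replicate 3 again the highest of its group, and by 2.30 without that library. Of the 4 tested genes for death domain receptors in the set, TNFRSF10A and TNFRSF21 thus fell and TNFRSF10B and TNFRSF1A rose. Their summed level was 345 ± 2.37 CPM with 8p and 231 ± 13.0 CPM in controls (SD, n = 3). FAS, a death receptor gene under another symbol, is given further on and fell.

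The remaining receptors changed little or were low. LTBR, the receptor of lymphotoxin and TNFSF14, lies 32930 bases from TNFRSF1A on chromosome 12 and had 68.9, 67.4 and 70.7 CPM with 8p, against 59.4, 63.1 and 55.2 CPM in controls. Its log2 fold change of 0.22 (SE 0.08, adjusted p = 0.0187, edgeR) no longer passed without control replicate 1, control replicate 3, 8p replicate 1 or 8p replicate 3 (adjusted p 0.0700 to 0.0929). TNFRSF13C, which encodes the BAFF receptor of B cells, had 1.198, 1.92 and 2.23 CPM with 8p, against 1.05, 1.07 and 0.707 CPM in controls. Its log2 fold change was 0.90 (SE 0.37, adjusted p = 0.0373, edgeR), and the call was lost when any 1 library other than 8p replicate 1 was left out (adjusted p 0.0776 to 0.149). TNFRSF12A, the receptor of the ligand TWEAK, ran from 3.31 to 4.06 CPM with 8p, against 4.01 to 5.11 CPM in controls. The groups overlapped, and the log2 fold change of −0.37 (SE 0.21) did not pass (adjusted p = 0.118, edgeR).

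**Figure D3:**
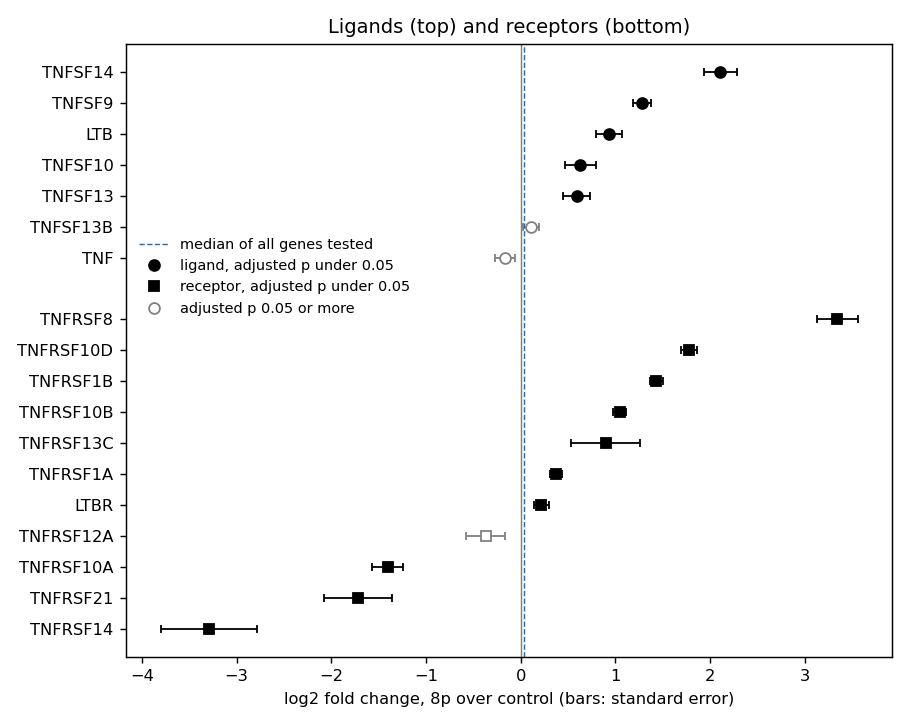
Log2 fold change of 8p over control with its standard error for the 7 ligand genes (circles, top) and 11 receptor genes (squares, bottom) tested, filled where the adjusted p was under 0.05. No ligand lies past the threshold on the negative side, whereas receptors run from TNFRSF14 at −3.29 to TNFRSF8 at 3.34, and the dashed line marks the median of all genes tested at 0.03.

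Promoter sequences are shown for the receptor and the ligand with the largest rise and for the receptors TNFRSF14 and TNFRSF21 that fell. LTB is shown too, the only one with an NF-kappaB match among the 13 tested genes that had a window. They come from a set of RefSeq promoters (GRCh38.p14) that held 25 of the 37 genes. The tested genes TNFRSF10A, TNFRSF10B, TNFRSF10D, TNFRSF12A and TNFRSF13C were not in it and were not searched. Sequences run 5′ to 3′ on the strand of the gene, from 250 bases before its RefSeq start to 50 after it. Capitals mark matches on either strand to an NF-kappaB motif (GGG, any 3 bases, TTCC), to TGANTCA (AP-1) or to CACGTG (an E-box).
TNFRSF8, chr1:12063053-12063352, plus strand: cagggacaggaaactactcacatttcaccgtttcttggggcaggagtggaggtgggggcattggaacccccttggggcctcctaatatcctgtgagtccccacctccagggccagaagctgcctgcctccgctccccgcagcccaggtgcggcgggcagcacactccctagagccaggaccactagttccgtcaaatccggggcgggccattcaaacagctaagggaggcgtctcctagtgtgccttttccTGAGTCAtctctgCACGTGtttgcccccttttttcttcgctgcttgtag
TNFSF14, chr19:6670111-6670410, minus strand: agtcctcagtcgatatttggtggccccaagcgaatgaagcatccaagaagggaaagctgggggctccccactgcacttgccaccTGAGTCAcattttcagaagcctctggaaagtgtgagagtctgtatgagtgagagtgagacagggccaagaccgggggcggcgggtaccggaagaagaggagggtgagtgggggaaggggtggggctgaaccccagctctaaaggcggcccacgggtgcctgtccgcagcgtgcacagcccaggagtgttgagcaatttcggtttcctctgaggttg
TNFRSF14, chr1:2556121-2556420, plus strand: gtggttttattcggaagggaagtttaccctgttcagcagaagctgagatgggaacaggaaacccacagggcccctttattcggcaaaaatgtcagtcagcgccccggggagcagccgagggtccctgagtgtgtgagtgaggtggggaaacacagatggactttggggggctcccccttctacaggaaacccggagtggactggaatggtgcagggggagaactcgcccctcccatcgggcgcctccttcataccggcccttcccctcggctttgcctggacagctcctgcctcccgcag
TNFRSF21, chr6:47309856-47310155, minus strand: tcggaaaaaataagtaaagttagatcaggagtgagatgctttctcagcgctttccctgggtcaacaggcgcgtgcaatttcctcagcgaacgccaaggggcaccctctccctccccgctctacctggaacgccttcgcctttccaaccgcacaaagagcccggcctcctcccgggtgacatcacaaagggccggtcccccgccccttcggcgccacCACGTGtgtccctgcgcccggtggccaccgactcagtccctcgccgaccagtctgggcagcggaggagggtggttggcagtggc
LTB, chr6:31582376-31582675, minus strand: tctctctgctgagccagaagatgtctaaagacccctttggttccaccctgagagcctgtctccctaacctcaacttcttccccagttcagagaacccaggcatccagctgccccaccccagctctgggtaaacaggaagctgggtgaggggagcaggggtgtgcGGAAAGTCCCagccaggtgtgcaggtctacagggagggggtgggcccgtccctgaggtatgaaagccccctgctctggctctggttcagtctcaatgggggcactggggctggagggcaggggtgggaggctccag

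The window of TNFRSF8 held an AP-1 match and an E-box just after the start, that of TNFSF14 an AP-1 match, that of TNFRSF21 an E-box and that of LTB an NF-kappaB match, while that of TNFRSF14 held none of these letters. The AP-1 letters stood in 4 of the 25 superfamily promoters and in 7.76% of 27305 RefSeq promoters of the same length. NF-kappaB letters stood in 2 of the 25 and in 6.47% of all, and the E-box in 3 of the 25 and in 7.43% of all. Matches are a description of the sequence and not of binding.

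Among the genes below the filter, TNFRSF4, which encodes OX40, a costimulatory receptor of T cells, had 20 counts in 8p libraries (11, 4 and 5) and 1 count in controls (1, 0 and 0). With libraries scaled, the ratio was 27.3, with an exact 95% interval from 4.36 to 1131 that covers counting error only. Its ligand gene TNFSF4 had 21 counts with 8p and 11 in controls, a ratio of 2.60 (1.201 to 5.98). TNFRSF11A, the receptor of RANK ligand, had 17 counts with 8p and 10 in controls (ratio 2.32, 1.00 to 5.67). For LTA the ratio was 0.771 (0.359 to 1.59) and TNFRSF9, the receptor of TNFSF9, with 15 counts with 8p and 13 in controls, one of 1.57 (0.699 to 3.60). TNFSF15 had 3 counts with 8p and 9 in controls (ratio 0.455, 0.0792 to 1.82). The intervals of these last 3 ratios span 1. Libraries of the groups overlapped for TNFSF4 (6, 4 and 11 counts with 8p, against 1, 3 and 7 in controls) and for TNFRSF11A (10, 4 and 3 with 8p, against 3, 2 and 5 in controls). With no filter on low counts TNFRSF4 passed (adjusted p = 0.00728, edgeR), and TNFSF4 (0.315), TNFRSF11A (0.425), TNFRSF9 (0.669), LTA (0.680) and TNFSF15 (0.546) did not. No difference of these 5 was detected at these counts and with 3 libraries a group. TNFSF12 had 5 counts with 8p and TNFRSF17 had 3, all of them in 8p replicate 3, and neither had any in controls. TNFRSF19 and TNFRSF25 had 1 count each.

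Symbols that share exons limit what a 0 means here. All exon bases of TNFSF12-TNFSF13, a gene that joins TNFSF12 and TNFSF13, lie in those 2 genes, and all exon bases of TNFRSF6B, a soluble decoy for TNFSF14 and TNFSF15, lie in RTEL1-TNFRSF6B. RTEL1-TNFRSF6B and TNFRSF6B summed had 108 counts with 8p and 112 in controls. The log2 fold change of 0.37 (SE 0.40) did not pass (adjusted p = 0.406, edgeR). All of these counts are those of RTEL1-TNFRSF6B, so the result does not test TNFRSF6B on its own. TNFSF13 shares 55.5% of its exon bases and TNFSF12 33.2% of them with other genes, so their levels can be too low. TNFRSF10C shares 39.3% of its exon bases, 485 of them with AC107959.4 on the same strand, which had 7 counts with 8p and 0 in controls.

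Ligands were set beside receptors in a list of 24 known pairs, which leaves out those of the soluble decoys TNFRSF6B and TNFRSF11B. Both genes of a pair reached 1 CPM in 8 pairs with 8p and in 8 pairs in controls. Pairs expressed in both groups were TNF with TNFRSF1A and TNFRSF1B, LTB and TNFSF14 with LTBR, and TNFSF10 with TNFRSF10A, TNFRSF10B and TNFRSF10D. TNFSF14 with TNFRSF14 was such a pair in controls only, and TNFSF13B with TNFRSF13C with 8p only. The mean of TNFRSF13C in controls was 0.945 CPM, just under the cut of 1 CPM, and its call was not stable either. In 4 pairs both genes rose: LTB with LTBR, TNFSF14 with LTBR, TNFSF10 with TNFRSF10B and TNFSF10 with TNFRSF10D. Among all genes tested 37.9% rose, a share of single genes and not of pairs. LTBR and TNFSF10 each recur among these pairs, so the pairs are not separate results. The pairs with LTBR rest on a call lost when any of 4 libraries was left out, which leaves 2 pairs. TNFSF14 rose while TNFRSF14, which passed the filter only through the controls, fell, and TNFSF10 rose while TNFRSF10A fell. The receptors TNFRSF13B and TNFRSF17 of TNFSF13 and TNFSF13B were at 0 or near it.

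Superfamily genes with other symbols were read from a list of 11, of which 3 were tested. CD70 and RELT, a receptor gene, rose. RELT had 34.1, 29.2 and 34.3 CPM with 8p, against 18.0, 19.0 and 16.2 CPM in controls (log2 fold change 0.87, SE 0.11, adjusted p = 2.10e-06, edgeR). FAS, the death receptor of FAS ligand, had 2.93, 2.34 and 1.28 CPM with 8p, against 3.29, 3.50 and 3.92 CPM in controls, and fell by 0.70 on the log2 scale (SE 0.29, adjusted p = 0.0372, edgeR). CD40, CD40LG, CD27, NGFR, EDAR and EDA2R had too few counts to be tested, and FASLG and EDA had none.

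Of the 33 genes listed for adaptors and receptor complexes 32 were tested, of which 18 rose and 8 fell, and their median was 0.44 in log2 fold change, against 0.03 over all genes tested, of which 37.9% rose and 36.9% fell. The largest change was that of TRAF1, an adaptor that binds TRAF2, at 2.96 ± 0.951 CPM with 8p and 0.299 ± 0.0570 CPM in controls (SD, n = 3), or 3.27 on the log2 scale (SE 0.42, adjusted p = 3.44e-06, edgeR). BIRC3, a ubiquitin ligase of the TNF receptor complex, had 0.599, 1.92 and 0.675 CPM with 8p, against 0.211, 0.421 and 0 CPM in controls (2.27, SE 0.69, adjusted p = 0.00777, edgeR). TRAF1 and BIRC3 passed the filter on low counts only through the 8p libraries, in which they were high. Their results, and the counts and median of the list that holds them, are therefore given as a description. MAP3K14, the kinase of the noncanonical NF-kappaB pathway, rose by 2.04 (29.9 ± 2.90 CPM with 8p, 7.27 ± 0.646 CPM in controls). CFLAR, an inhibitor of caspase-8, was at 147 ± 10.9 CPM with 8p and 41.4 ± 3.61 CPM in controls. Other members, named after their values were seen, moved in both directions. The largest fall was that of TRAF4, at 9.38 ± 1.65 CPM with 8p and 28.2 ± 1.60 CPM in controls (−1.59). TRAF2, TRAF3 and the ubiquitin ligases BIRC2 and BIRC3 together hold MAP3K14 in check. BIRC2 rose like BIRC3, at 43.6 ± 6.15 CPM with 8p and 28.6 ± 0.713 CPM in controls (0.61). TRAF2 and TRAF3 were at 14.8 ± 0.685 and 21.0 ± 2.83 CPM with 8p and at 35.5 ± 3.18 and 39.6 ± 2.15 CPM in controls, and both fell. Any link between these changes and the level of MAP3K14 was not tested. In the death receptor complex CASP8 (0.97), RIPK1 (0.92) and TRADD (0.70) rose and FADD (−0.56) fell, in log2 fold changes.

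Of 9 listed proteases and partners that process these ligands and receptors 8 were tested, of which 7 rose and none fell (87.5% called, against 74.7% of all genes tested, 37.9% of which rose), and their median was 0.77 in log2 fold change, against 0.03. RHBDF1, an inactive rhomboid that takes part in the maturation of the sheddase ADAM17, had 18.0, 15.9 and 20.2 CPM with 8p, against 1.43, 0.467 and 0.816 CPM in controls (4.28, SE 0.25, adjusted p = 4.50e-10, edgeR). FURIN, which cleaves TNFSF13 and TNFSF13B, was at 175 ± 7.60 CPM with 8p and 60.3 ± 5.22 CPM in controls (1.54). FRMD8, a partner of the inactive rhomboids, rose by 1.19 on the log2 scale and RHBDF2, another inactive rhomboid, by 0.84. ADAM17 and ADAM10 are given for their known part in shedding. ADAM17, which releases TNF, was at 40.8 ± 5.31 CPM with 8p and 32.2 ± 1.74 CPM in controls (0.34, SE 0.10, adjusted p = 0.00666, edgeR), while ADAM10 stood at 90.9 ± 2.27 CPM with 8p and 89.7 ± 3.36 CPM in controls and did not pass (adjusted p = 0.812, edgeR).

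Of 19 listed genes that respond to TNF in many cells 15 were tested, of which 11 rose and 4 fell, against 37.9% higher and 36.9% lower of all genes tested. Their median was 1.55 in log2 fold change, against 0.03 for all genes. TRAF1 and BIRC3 belong to this list too. They and the cytokine gene IL1B, which rose, passed the filter on low counts only through the 8p libraries, in which they were high. CCL20 passed it through all control libraries but not all 8p libraries. The split and the median of this list are therefore given as a description. CXCL8, a chemokine, had 53.4, 44.1 and 43.2 CPM with 8p, against 4.47, 4.44 and 6.75 CPM in controls, and TNFAIP2 was at 283 ± 15.6 CPM with 8p and 33.1 ± 1.21 CPM in controls. The 4 that fell, named after their values were seen, were NFKB1, TNFAIP8, TNFAIP3 and CCL20, the last at 0.604 ± 0.0631 CPM with 8p and 1.57 ± 0.346 CPM in controls (−1.37, SE 0.38, adjusted p = 0.00442, edgeR). All 4 lists were drawn up with earlier results of these data known.

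**Figure D4:**
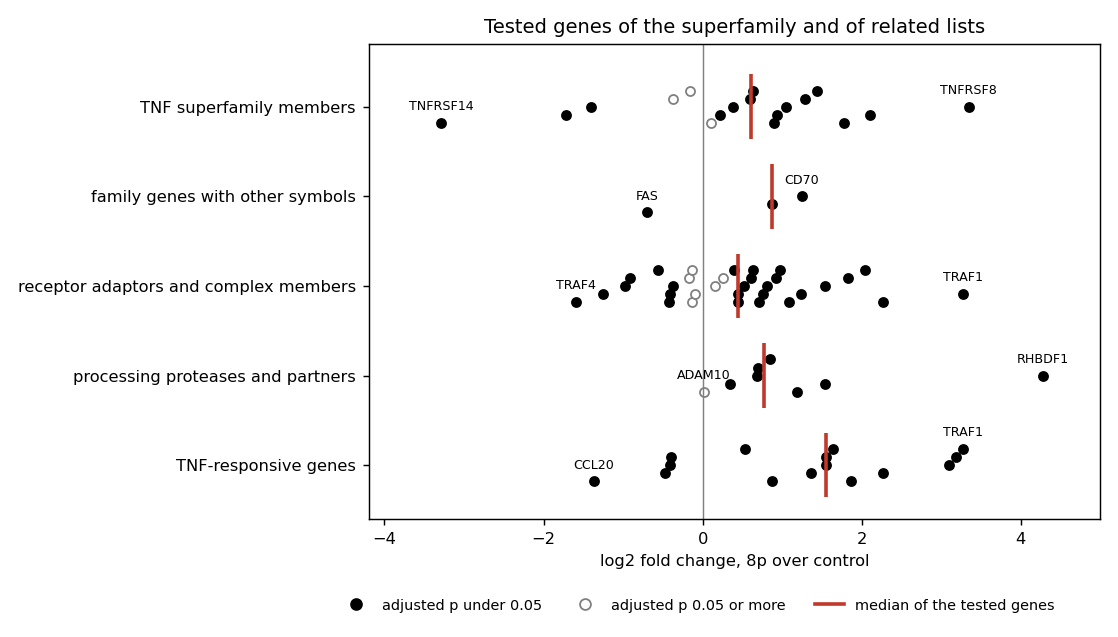
Log2 fold change of 8p over control of each tested gene in the TNF superfamilies and in 4 related lists (filled: adjusted p under 0.05), with a red line at each list's median and the outermost genes named. Medians run from 0.44 for the adaptors to 1.55 for the genes that respond to TNF, and every list other than that of the proteases holds genes that fell.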

How the data were processed

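Gene-level RNA sequencing counts of 6 libraries were used, 3 with 8p and 3 controls, grouped by title. The authors deposited raw read counts, whole numbers with a different total in each library and no normalization. Per the submitters' processing notes, the build was hg38 and the tools include HISAT2 2.0.5, featureCounts 1.5.0-p3, edgeR 3.22.5 and DESeq2 1.20.0. The deposited gene length column, in bases, equals the exon union of GENCODE 29 for all 37 members, and all 58735 identifiers and positions match that release. The labels name poly(A) capture or removal of ribosomal RNA without saying which.

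Counts were tested in R 4.3.3 with edgeR 4.0.16 (TMM, filterByExpr with a minimum of 10 counts, quasi-likelihood F test, group as the only term, Benjamini-Hochberg over 13822 genes). The standard error is the log2 fold change over the square root of F. CPM and RPKM use the TMM scale. TMM takes most genes as unchanged, so fold changes are relative to other transcripts. The pipeline was also run on simulated counts with few changed genes and the same noise for all genes. That run does not check the scaling or the error rates in these data. Alternatives were DESeq2 1.42.0, limma 3.58.1, other scalings and filters, a replicate block, summed loci and each library left out. Counts limit precision most for genes under 1 CPM.

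The rule for naming took every member, and of each related list up to 4 genes with the largest change past the threshold. Other list genes were named after their values were seen. The symbol SOD2 stands on 2 rows and was left out of its list of 20. The members and lists were chosen with earlier results of these data known. The result of 1 marker list is not reported here.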

Additional observations from a re-analysis of the deposited data

How the results depend on the processing

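Of the 18 tested superfamily genes 14 kept their direction and their side of the threshold under every alternative run. The counts of superfamily genes called, 12 higher and 3 lower, ran from 10 to 11 higher with 3 lower when 1 library was left out, and for all genes from 4963 to 5303 higher and from 4903 to 5337 lower. Asking for at least a 2-fold change left 6 superfamily genes higher, and 2883 higher and 2421 lower among all genes. TNF was 0.0241 with upper quartile scaling (adjusted p = 0.839), which moved the median of all genes to 0.22, against 0.03. It was −0.28 with no filter on low counts, where it passed (adjusted p = 0.0354) and the median of all genes was 0.14. TNFSF13B was −0.00838 with no filter (adjusted p = 0.940). LTBR and TNFRSF13C did not pass with no filter (adjusted p = 0.387 and 0.103), and TNFRSF13C did not with DESeq2 (0.0708). The cause was not tested. With no filter TNFRSF4 passed (log2 fold change 4.21, adjusted p = 0.00728, edgeR). Same-numbered libraries of the 2 groups did not deviate together (r = −0.01, −0.02 and −0.04). With the replicate number as a block, 11 superfamily genes were higher and 3 lower, with TNFRSF13C no longer called (adjusted p = 0.0753), and 5076 and 5014 among all genes.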
